A study of Mus musculus with 82 samples.

Results

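The genes described are 4 membrane transport genes picked because a probe set annotated to each differed between inbred mouse strains: the peptide transporter gene Slc15a2, the amino acid transporter gene Slc1a5, the lipid flippase gene Atp8b4 and the potassium channel gene Kcnma1. They were chosen by symbol for the pattern of their strain means in these same arrays, so their levels across strains are given as a description, with no test. The 4 genes are read by 5 of 24922 probe sets, out of 19752 genes that have a probe set with 1 gene symbol, and Kcnma1 has 2 of the 5, of which the variable one may not read that gene. The data are 82 Affymetrix ST1.0 arrays of naive CD4 T cells that were sorted from spleen by CD62L, CD4 and CD3, after exclusion of cells with markers such as CD8, CD11c, CD25, CD49b, Gr1 or Ter119. The mice were males, 6 weeks old per the sample labels and slightly younger per the series description, with no treatment named. The series description names sorted naive T cells in 1 sentence and bone marrow granulocytes in another, and the cell type is taken from the sample labels.

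The arrays fall into 40 strain groups, of which 38 hold 2 arrays, C57BL/6J holds 5 and SWR/J holds 1. The C57 strains are C57BL/6J, C57BL/10J, C57BLKS/J, C57L/J and a C57BR-titled group. Other classical strains are 129S1/SvImJ, A/J, AKR/J, BALB/cByJ, BPL/1J, BTBR T+ tf/J, C3H/HeJ, CBA/CaJ, CBA/J, CE/J, DDY/JclSidSeyFrkJ, FVB/NJ, KK.Cg-Ay/J, LGJ, LP/J, MA/MyJ, MRL/MpJ, NOD/ShiLtJ, NON/ShiLtJ, NOR/LtJ, NZB/BINJ, NZW/LacJ, P/J, PL/J, RIIIS/J, SEA/GnJ, SJL/J, SM/J, SWR/J and a DBA2-titled group. KK.Cg-Ay/J carries the agouti allele Ay. The wild-derived strains are WSB/EiJ, of M. m. domesticus origin, and CAST/EiJ and PWD/PHJ of other subspecies, as are the Japanese strains MSM/Ms and JF1/Ms. Both titled groups are so called because title and label differ: C57BR arrays are labelled CBA/CaJ in the background field, and DBA2 arrays DBA/1LacJ. Over 978 probe sets with a wide spread between strains, the C57BR-titled group was most like C57L/J (r = 0.81) and the CBA/CaJ group most like CBA/J (r = 0.53). Each array holds cells pooled from several mice, and nothing beyond the series description says how far such pools are independent.

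Array medians ran from 102 to 142 in intensity. T cell markers were high on all arrays, with a mean of the 8 measured of 10 markers between 11.87 and 12.26 on the log2 scale. The median of all values was an intensity of 113 (6.82 on the log2 scale), and 1 of 10 B cell, 0 of 10 neutrophil and 0 of 10 myeloid markers had a mean above it. The same held for 2 of 7 dendritic cell, 1 of 3 erythroid, 1 of 7 NK cell, 2 of 4 CD8 T cell and 7 of 7 regulatory T cell markers. Replicate 2 of PL/J stood apart in B cell (8.78), neutrophil (7.49), myeloid (7.23) and erythroid (7.84) marker means, against 5.67, 5.92, 5.88 and 6.47 on replicate 1. Replicate 2 of A/J stood apart in B cell markers (7.39 against 5.67) and erythroid markers (7.66 against 6.48). With these 2 arrays left out, the number of strains switched on and the range between strains were the same for each of the 5 probe sets. In such pooled samples, fewer cells that express a gene and less RNA per cell cannot be told apart. Nor can a mismatch of the probes to a strain's sequence, which was not tested for any gene named below.

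The product of Slc15a2, PEPT2, brings di- and tripeptides, and bacterial muropeptides among them, into the cell together with protons. The product of Slc1a5, ASCT2, exchanges neutral amino acids across the plasma membrane and is a main route of glutamine entry in activated T cells. Atp8b4 encodes a P4-type ATPase, a family that moves phospholipids from the outer to the inner leaflet of membranes and works with a CDC50 protein partner. Kcnma1 encodes the pore-forming subunit of the large-conductance, calcium-activated potassium channel (BK), best known from smooth muscle and neurons.

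The reference promoters of Slc15a2, Atp8b4 and Kcnma1 are shown because a probe set annotated to each of these genes was on in some strains and off in others, although for Kcnma1 that probe set may read another transcript. Each is a window of 300 bases around a RefSeq start of the gene in the C57BL/6J assembly GRCm38.p6, 5′ to 3′ on the gene's strand, which is the minus strand for all 3. The Slc15a2 window lies at chr16:36784913-36785212, the Atp8b4 window at chr2:126491504-126491803 and the Kcnma1 window at chr14:24004156-24004455. A gene can have several starts: the gene record reaches 8866 bases further upstream than the window in Atp8b4 and 655 in Kcnma1, and the Slc15a2 window reaches 54 bases upstream of its gene record. Which start naive T cells use was not measured here. Capitals mark matches, on either strand, to the letters of 6 motifs, namely the TATA box, the CCAAT box, the GC box and the sites of RUNX, ETS and AP-1 factors, spelled out after the sequences.
Slc15a2: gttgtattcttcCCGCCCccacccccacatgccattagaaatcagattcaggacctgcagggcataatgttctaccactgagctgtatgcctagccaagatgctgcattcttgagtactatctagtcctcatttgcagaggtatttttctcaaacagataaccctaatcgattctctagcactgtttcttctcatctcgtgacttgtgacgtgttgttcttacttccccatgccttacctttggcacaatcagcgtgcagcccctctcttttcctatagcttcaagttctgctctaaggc
Atp8b4: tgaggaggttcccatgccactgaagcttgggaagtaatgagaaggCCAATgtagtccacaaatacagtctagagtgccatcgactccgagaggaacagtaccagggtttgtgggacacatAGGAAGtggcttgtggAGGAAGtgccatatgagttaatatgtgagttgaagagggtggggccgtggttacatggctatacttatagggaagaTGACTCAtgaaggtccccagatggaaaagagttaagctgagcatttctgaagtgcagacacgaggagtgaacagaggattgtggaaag
Kcnma1: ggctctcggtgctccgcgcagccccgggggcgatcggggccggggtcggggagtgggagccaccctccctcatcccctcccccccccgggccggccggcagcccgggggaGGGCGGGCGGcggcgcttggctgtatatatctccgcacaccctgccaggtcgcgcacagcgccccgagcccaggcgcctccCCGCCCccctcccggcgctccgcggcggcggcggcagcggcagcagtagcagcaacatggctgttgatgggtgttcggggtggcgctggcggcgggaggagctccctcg
The windows differ in base composition. That of Kcnma1 has a GC content of 78.0 percent and 36 CpG dinucleotides, above the medians of 52.7 percent and 7 over 32851 promoter windows of the same length. Those of Slc15a2 and Atp8b4 have 46.3 and 48.0 percent, with 5 and 4 CpGs. The Kcnma1 window holds 3 matches to the GC box letters GGGCGG, of which 2 overlap, and the Slc15a2 window holds 1. These letters occur in 35.7 percent of all windows. The Atp8b4 window holds 1 match to the CCAAT box, found in 37.4 percent of windows. It also holds 2 matches to the ETS letters AGGAAG, found in 35.4 percent. A match to the AP-1 letters TGACTCA, found in 5.20 percent, starts at base 213 counted from the 5′ end. None of the 3 windows holds the TATA box letters TATAAA, found in 13.6 percent. None holds the RUNX letters TGTGGT either, found in 16.8 percent. A match is a description of the reference sequence and shows no binding.

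Slc15a2, read by probe set 10439321, was low in most strains and high in a minority. A strain is counted as on where its mean is at or above the median of all values (113). Strain means of log2 values are given as intensities, which are geometric means. By this rule 11 strains were on and 29 off, with C57BL/10J (125) just inside and C57BL/6J (102) just outside. The widest gap in the ordered strain means, 1.46 on the log2 scale, lay lower, between SM/J (37.1) and C57BL/6J, with 28 strains below it and 12 above. The 56 arrays of the 28 lower strains ran from 25.1 to 40.9 with a median of 33.0.

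The 12 strains above the gap showed 2 levels. The higher was reached by SWR/J at 606 on its only array, by FVB/NJ at 555 and 603 on its 2 arrays, and by NON/ShiLtJ at 622 and 484. CE/J stood at 444 and 552, CBA/CaJ at 474 and 490, and P/J at 225 and 519. These 6 strain means ran from 342 to 606, against a strain median of 33.7, and all 11 of their arrays exceeded every array of the other 34 strains. Leaving out C57BL/10J replicate 1 or the only SWR/J array gave 10 strains on by the median rule, and leaving out C57BL/6J replicate 1 gave 12. Of these arrays P/J replicate 1 was the lowest, close to the highest array of the middle strains. The middle level held MA/MyJ with 149 and 219, NZW/LacJ with 164 and 185, C57BLKS/J with 157 and 180, 129S1/SvImJ with 141 and 116, and C57BL/10J with 188 and 83.5. Their means ran from 125 to 181. No fold over the low strains is given, since it would depend on the background signal. Within the middle level the arrays of neighbouring strains overlapped. A 0.92 gap on the log2 scale separated MA/MyJ (181) from P/J (342).

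C57BL/6J was unlike the rest in its spread between arrays. Its 5 arrays read 32.3, 195, 73.8, 136 and 177, so that 1 lay among the values of the off strains and 3 above the median of all values. The SD of these 5 log2 values was 1.08, against a median of 0.18 for all probe sets on the same arrays, and no other of the 24922 probe sets had a larger one. The next 4 probe sets in that order, chosen after their values were seen, are all annotated to the same set of several genes that includes Csprs, with SDs from 0.85 to 1.07. In the related strain C57BL/10J the arrays differed by over 2-fold, and in P/J by 1.20 on the log2 scale, the widest of 38 pairs. The median difference within a pair was 0.13. Of the 38 pairs 28 were those of the low strains, with arrays from 25.1 to 40.9, so this median mostly describes dim values. The low C57BL/6J array had the lowest of the 5 myeloid (5.69), dendritic (6.53), NK cell (5.11), CD8 T cell (7.13) and regulatory T cell (8.14) marker means. Its B cell mean, 5.50, was not the lowest of a range from 5.49 to 6.00, nor were its neutrophil, erythroid and T cell means. The regulatory T cell means of the 5 arrays followed the order of Slc15a2 throughout. They were 8.14, 8.19, 8.36, 8.43 and 8.53 where Slc15a2 read 32.3, 73.8, 136, 177 and 195. In the 10 other high strains with 2 arrays, the regulatory T cell mean was higher on the array with more Slc15a2 in 6, with a median difference of 0.02. For the lists of other cell types this count was 4 to 6 of 10. The part of these cells in the result was not tested.

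Related strains often differed in Slc15a2. CBA/CaJ stood at 482, whereas CBA/J (31.4) and C3H/HeJ (33.8) were among the low strains. NON/ShiLtJ stood at 549, whereas NOR/LtJ (31.6) and NOD/ShiLtJ (33.6) were low. FVB/NJ and SWR/J were high while SJL/J (35.4) was low. C57L/J (30.0) and the C57BR-titled group (27.4) were low, unlike the other C57 strains, and the C57BR-titled arrays differed in this from the CBA/CaJ arrays whose background label they share. NZW/LacJ (174) was in the middle level and NZB/BINJ (28.3) among the low strains. The 4 strains of non-domesticus origin were all low, from 31.4 to 35.7, as was WSB/EiJ (29.6).

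Atp8b4, read by probe set 10487208, showed the opposite layout: present in most strains and low in a few. By the median rule 36 strains were on and 4 off, with C3H/HeJ (103) just outside and P/J (135) just inside. The widest gap, 0.79 on the log2 scale, separated 5 low strains from MSM/Ms (233). The DBA2-titled arrays read 45.9 and 47.9, those of NON/ShiLtJ 50.9 and 56.9, of CBA/J 89.5 and 90.5, of C3H/HeJ 102 and 104, and of P/J 129 and 142. None of these 10 arrays overlapped with the other 72, which ran from 207 to 1161 with a median of 564. Next above came MSM/Ms at 207 and 263, PWD/PHJ at 217 and 276, and JF1/Ms at 315 and 316, so 3 of the 4 strains of non-domesticus origin were the lowest of the strains above the gap. The fourth, CAST/EiJ, stood at 475. Whether the probes match the sequence of these strains was not tested. SEA/GnJ had the highest mean, 1089, from arrays at 1020 and 1161.

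In Atp8b4 the SD of strain means was 1.03 and the replicate SD 0.20 on the log2 scale. Of 39 neighbouring pairs in the order of strains, 31 overlapped in their arrays and 5 were apart by more than 1 replicate SD. The 5 arrays of C57BL/6J lay close together, from 621 to 694. CBA/CaJ (719) again differed from CBA/J (90.0), by 7.99-fold, and SEA/GnJ from the related P/J by 8.06-fold. Both folds depend in part on the background signal in the lower value. NOD/ShiLtJ (416) and NOR/LtJ (560) were on, whereas NON/ShiLtJ was off. On the PL/J array with raised B cell markers Atp8b4 read 459, against 629 on its partner. On the A/J array with raised B cell markers it read 837, against 584. The differences ran in opposite directions, and their tie to the markers was not tested.

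**Figure D1:**
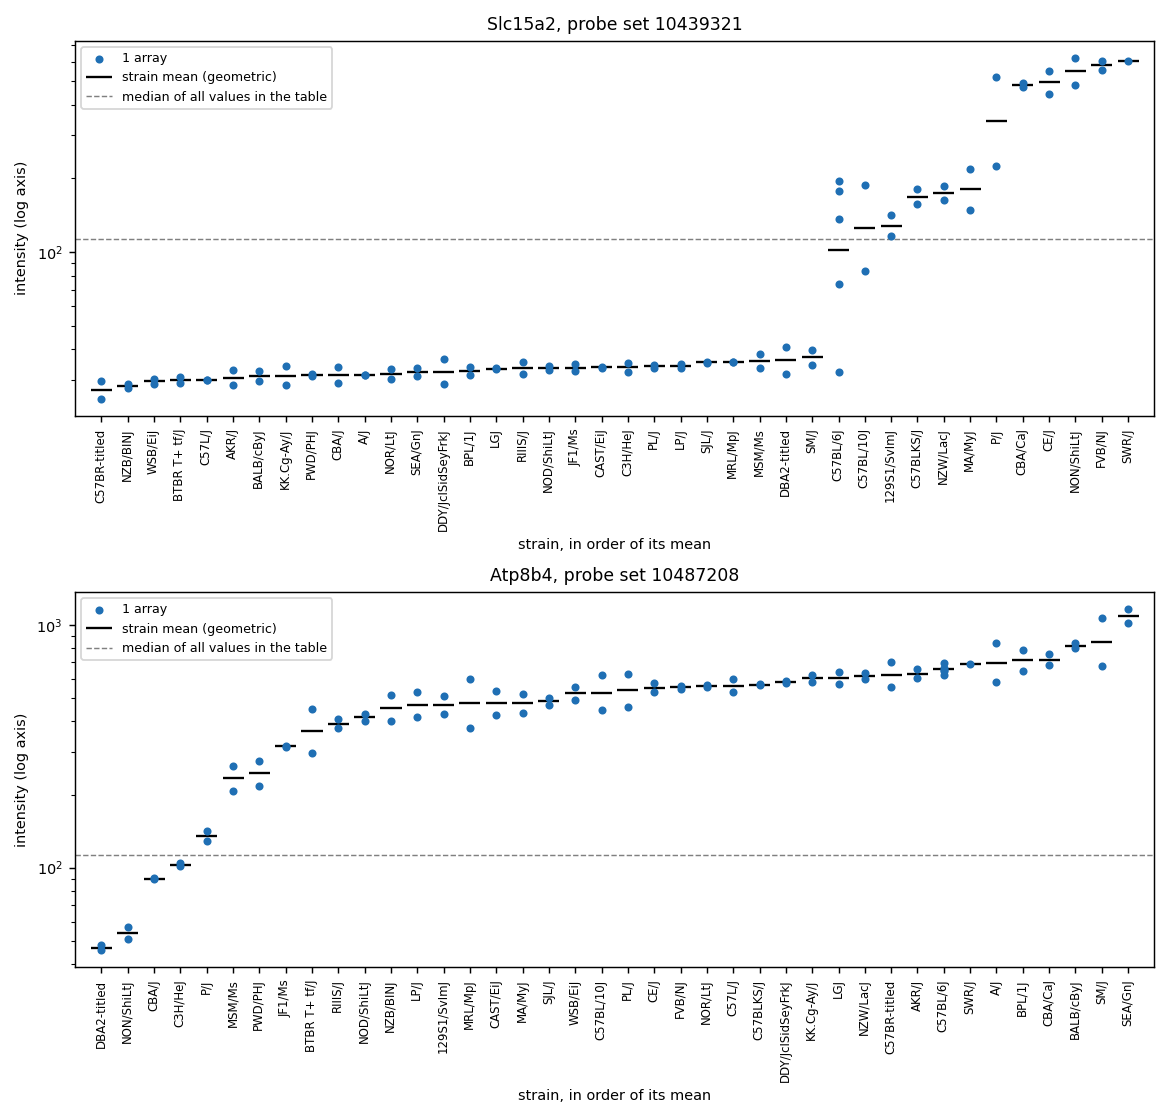
Intensity on a log axis of Slc15a2 (upper panel) and Atp8b4 (lower panel) on each of 82 arrays, with the 40 strains in order of their mean; points are arrays, bars strain means and the dashed line the median of all values, 113. Slc15a2 rises from 28 low strains to a middle and a high level, with the 5 arrays of C57BL/6J spread from 32.3 to 195, and Atp8b4 falls in 5 strains below the other 35.

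Kcnma1 has 2 probe sets, and they gave different pictures. Probe set 10418053 was low throughout, with strain means from 29.1 in AKR/J to 42.4 in SM/J, a range of 1.46-fold, and no strain on by the median rule. Its SD of strain means (0.12 on the log2 scale) was below its replicate SD (0.16), and 38 of 39 neighbouring strain pairs overlapped. Strain means of probe set 10582545 ran from 19.5 in CBA/CaJ to 5523 in AKR/J, a range of 8.15 on the log2 scale that shrank to 6.75 with an offset of 32 added to every value. The strain means of the 2 probe sets had a correlation of -0.16 over 40 strains.

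High values of probe set 10582545 were found in 8 strains. AKR/J read 5786 and 5272, and PL/J 781 and 1859. SEA/GnJ followed with 353 and 440, JF1/Ms with 337 and 275, P/J with 217 and 200, and BTBR T+ tf/J with 173 and 156. The DBA2-titled arrays read 139 and 120, and LP/J 133 and 92.6. The 66 arrays of the other 32 strains ran from 16.9 to 38.4 with a median of 22.6, below all 16 arrays of these 8 strains. By the median rule 7 strains were on, with the DBA2-titled group (129) just inside and LP/J (111) just outside, and the widest gap, 2.20 on the log2 scale, set AKR/J apart from PL/J (1205). The next widest, 1.75, lay between SJL/J (33.1) and LP/J and divides the 8 strains from the other 32. The higher of the 2 PL/J arrays is the one with raised B cell, neutrophil, myeloid and erythroid markers, and the part of these in its level was not tested. Replicate 1 of PL/J, which lacked them, read 781 against a strain median of 23.8.

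The states of related strains differed here as well. LP/J and BTBR T+ tf/J were high while 129S1/SvImJ (21.0) was low. Of the 4 strains of non-domesticus origin JF1/Ms (304) was high and MSM/Ms (22.6), PWD/PHJ (20.8) and CAST/EiJ (24.4) were low. P/J and SEA/GnJ were both high.

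Several facts bear on what probe set 10582545 reads. The platform annotation lists 4 sequence accessions for it, none of them among the RefSeq transcripts of Kcnma1, and shares none with probe set 10418053, which has 20 accessions of which 17 are such transcripts. Kcnma1 lies on chromosome 14. The 20 named probe sets nearest to 10582545 in identifier lie all on chromosome 8, whereas for the other 4 probe sets described here 19 or 20 of the 20 nearest lie on the chromosome of the annotated gene. The next identifier in the table, 10582549, has no gene name, and its strain means followed those of 10582545 with a correlation of 0.95. It was highest in the same 8 strains, from 52.2 in the DBA2-titled group to 2835 in AKR/J, against a strain median of 38.4. The DBA2-titled arrays (49.6 and 55.0) overlapped those of the next strain, NZB/BINJ (45.7 and 52.1), so that group did not stand apart. No probe sequences were at hand, so which transcript the probe set reads was not determined, and its values are not taken as levels of the BK channel.

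**Figure D2:**
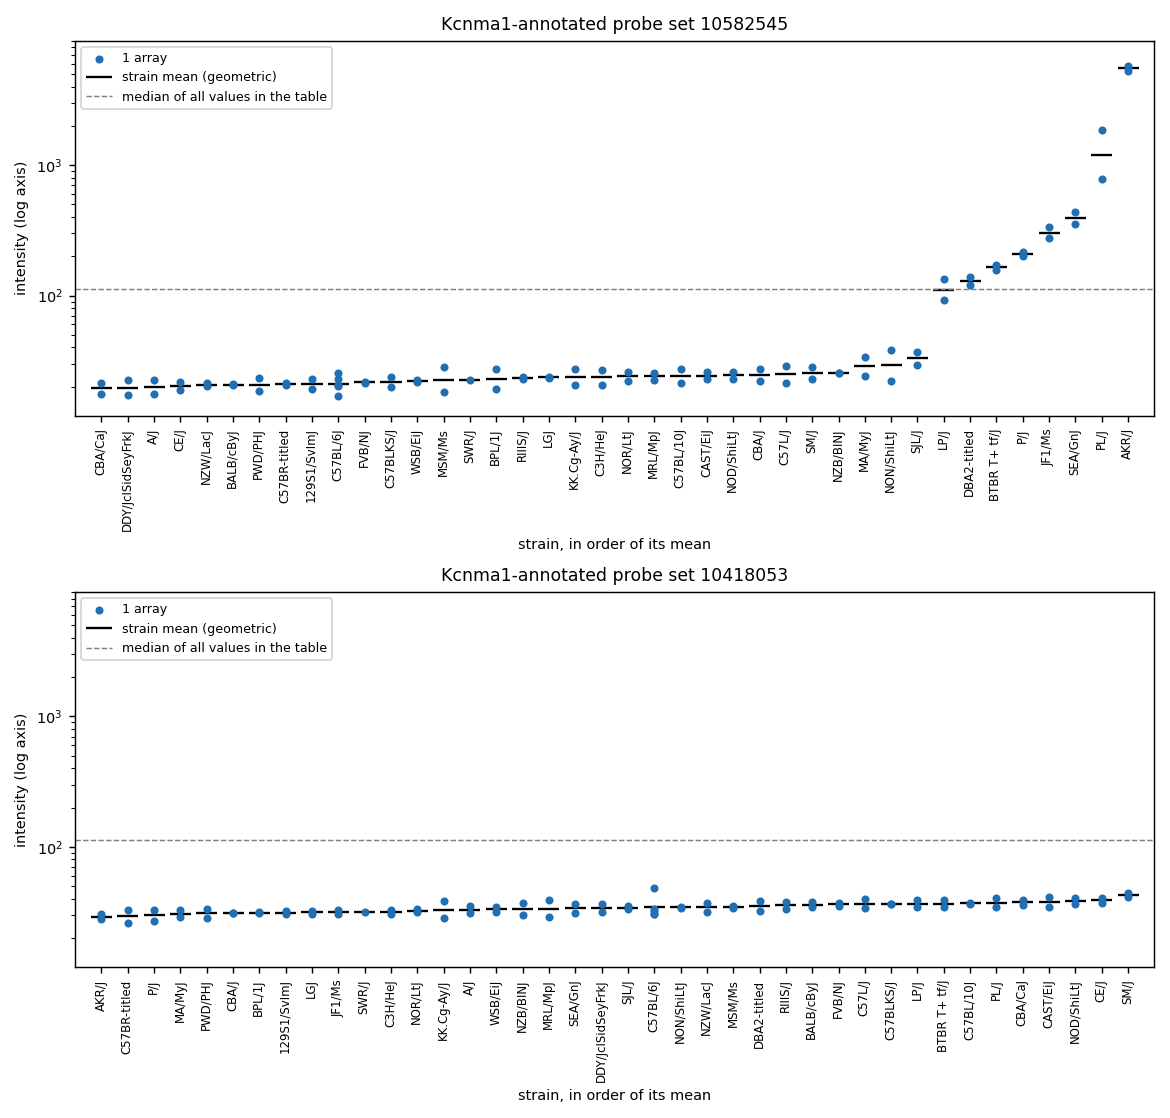
Intensity on the same log axis of the probe sets 10582545 (upper panel) and 10418053 (lower panel), both annotated to Kcnma1, on each of 82 arrays, with strains in order of their mean in each panel. In the upper panel 8 strains stand above the other 32, with AKR/J highest at 5523, and in the lower panel all strain means lie between 29.1 and 42.4.

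Slc1a5, read by probe set 10550332, had no off state. All 40 strains lay above the median of all values, and the means ran in small steps from 382 in C3H/HeJ to 1452 in MA/MyJ, a range of 3.80-fold. The widest gap was 0.23 on the log2 scale, between MSM/Ms and NZW/LacJ. The SD of strain means was 0.60 and the replicate SD 0.14, and 35 of 39 neighbouring pairs of strains overlapped in their arrays. The label of a gene switched on or off therefore does not describe Slc1a5.

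The lowest Slc1a5 values were those of C3H/HeJ (408 and 359), LP/J (400 and 370), CBA/J (404 and 411) and MSM/Ms (352 and 482). Means of 483 to 536 followed in NZW/LacJ, 129S1/SvImJ, NZB/BINJ, CAST/EiJ and BTBR T+ tf/J. A middle stretch ran from SJL/J (600.3) through BALB/cByJ (639), NOD/ShiLtJ (720.0), C57L/J (743) and A/J (764) to MRL/MpJ (828). The upper 18 strains began with SWR/J (941), RIIIS/J (970) and SM/J (1013), and at the top stood SEA/GnJ (1372 and 1450), AKR/J (1591 and 1313) and MA/MyJ (1397 and 1510). All 38 arrays of these 18 strains were higher than all 44 arrays of the lower 22, although the gap between the 2 sides was only 0.18 on the log2 scale. The 5 arrays of C57BL/6J read 1147, 1370, 1447, 1112 and 1358.

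CBA/CaJ, with arrays at 1359 and 1070, stood 3.15-fold above C3H/HeJ and apart from CBA/J. So CBA/CaJ was higher than CBA/J in Slc15a2, Atp8b4 and Slc1a5 alike, and C3H/HeJ had values near those of CBA/J in all 3. Among C57 strains Slc1a5 was lower in C57L/J (743) and the C57BR-titled group (764) than in C57BL/10J (1026), C57BL/6J (1280) and C57BLKS/J (1400), the same division as in Slc15a2. NZB/BINJ (507) and NZW/LacJ (483), which differed in Slc15a2, differed here by 1.05-fold only.

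**Figure D3:**
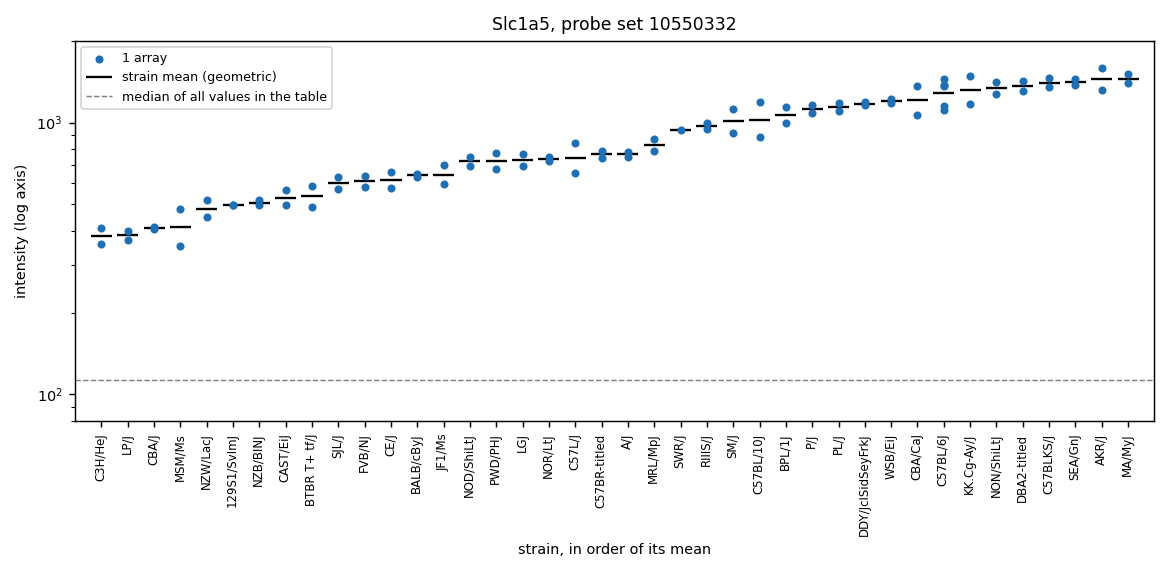
Intensity on a log axis of Slc1a5 on each of 82 arrays, with the 40 strains in order of their mean; points are arrays, bars strain means and the dashed line the median of all values. The means rise in steps of at most 0.23 on the log2 scale from 382 in C3H/HeJ to 1452 in MA/MyJ.

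The strain means of the 4 genes were weakly correlated at most. Pearson correlations between members ran from -0.18, for Slc15a2 and probe set 10582545, to 0.25, for that probe set and Slc1a5, over 40 strains that share descent. For Slc15a2 and both Kcnma1 probe sets most or all strains lay at dim values, so these correlations do not compare orders of strains. Split at the widest gap for Slc15a2 and Atp8b4 and at the 1.75 gap for probe set 10582545, 19 strains had Slc15a2 low, Atp8b4 high and probe set 10582545 low. A further 10 had Slc15a2 high with the other 2 at these states, and 6 had probe set 10582545 high with the other 2 at these states. CBA/J and C3H/HeJ had Atp8b4 alone changed, NON/ShiLtJ had Slc15a2 high and Atp8b4 low, and the DBA2-titled group had Atp8b4 low and probe set 10582545 high. P/J departed in all 3.

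Genes with the most similar strain means were looked for among 12489 named probe sets, as a description without a test. These were the ones that lay above the median of all values in at least 1 strain. The points share arrays, strain descent and any mismatch of probes to a strain's sequence. For Slc1a5 the most alike were Ercc2 (r = 0.68), a DNA repair helicase gene, Mgst2 (0.66), a microsomal glutathione transferase gene, and Opa3 (0.64), a mitochondrial protein gene, and the least alike was Irgc1 (-0.72). Ercc2, Opa3 and Irgc1 lie on chromosome 7 with Slc1a5, 65, 56 and 214 protein-coding genes away in the order of the reference annotation. Of the 20 most strongly correlated probe sets, 8 were on chromosome 7, which holds 8.07 percent of all that were compared. For Atp8b4 the most alike were Galk2 (0.56), a galactokinase family gene 4 genes away on chromosome 2, Gbp8 (0.53), a guanylate-binding protein gene, and Ttc28 (0.52). The least alike named gene was the mitochondrial ribosomal protein gene Mrps5 (-0.56), 25 genes away. Of the top 20 probe sets, 5 lay on chromosome 2, against 7.66 percent of all. Mrps5 was among them with probe set 10480379 and also with 10475830 (-0.53), so these are not 5 separate genes.

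An unnamed probe set, 10487380, had a stronger inverse relation to Atp8b4 (-0.74). It was highest in PWD/PHJ (300), the DBA2-titled group (290), NON/ShiLtJ (254) and CBA/J (252), against a strain median of 187, and 10 probe sets lie between it and that of Atp8b4 in identifier order. Over the 35 strains above the Atp8b4 gap the correlation was -0.52. For Slc15a2 no strong match was found: Zfp420 (0.48), S100a4 (0.46), a calcium-binding protein gene, and Sertad2 (0.46) were the most alike and Shmt2 (-0.50), a mitochondrial serine hydroxymethyltransferase gene, the least, all on other chromosomes. For probe set 10582545 the most alike named genes were Grifin (0.57), Uck1 (0.53), a uridine-cytidine kinase gene, and Tarbp1 (0.49), which lies on chromosome 8, and the least alike was Card6 (-0.65), which fell to 33.4 in AKR/J from 1348 in NZW/LacJ.

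**Figure D4:**
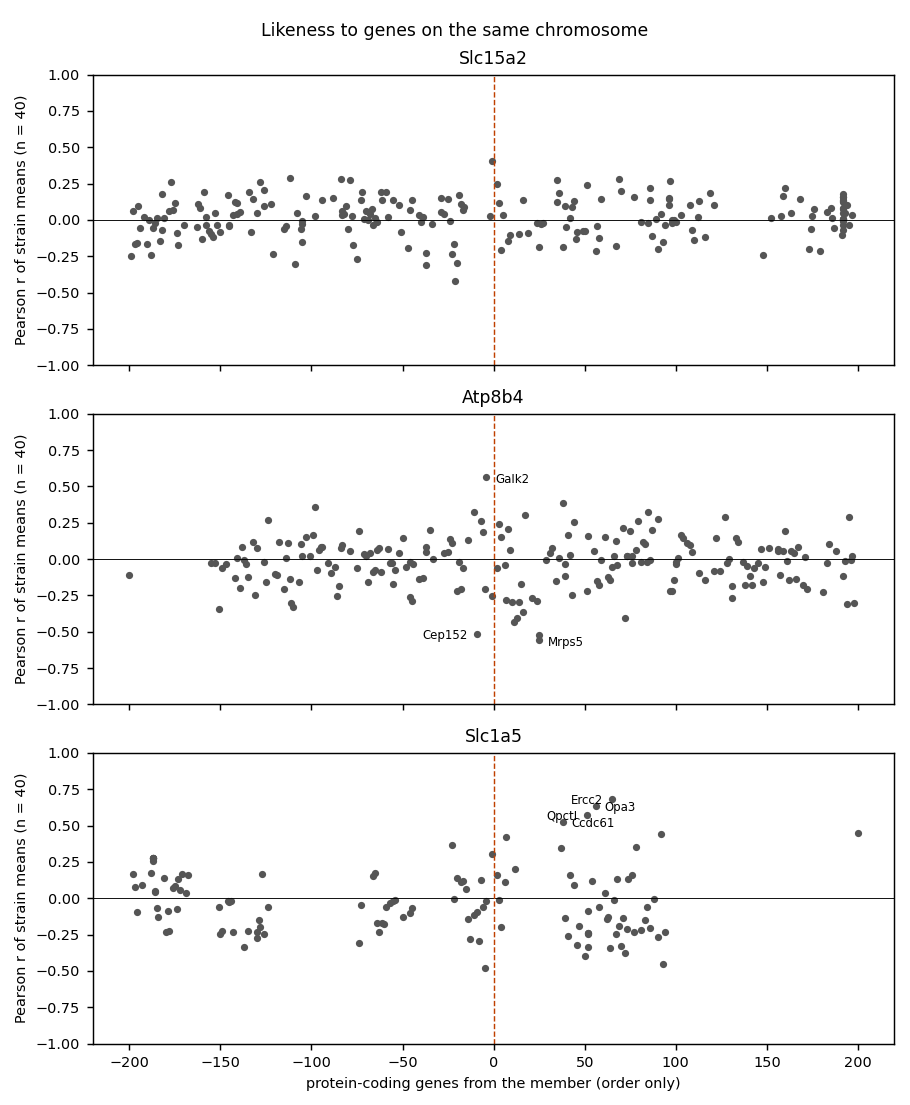
Pearson correlation of strain means (40 strains) between Slc15a2, Atp8b4 or Slc1a5 and named probe sets on its chromosome. The horizontal axis is the number of protein-coding genes that separate them in the reference order, up to 200 on each side. Only probe sets above the median of all values in at least 1 strain are shown. Genes beyond 0.5 are labelled: Galk2, Cep152 and Mrps5 near Atp8b4 and Ercc2, Opa3, Qpctl and Ccdc61 on the chromosome of Slc1a5, with none for Slc15a2.

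The 5 measured genes on each side of every member were then examined with limma's moderated F-test for any difference between the 40 strains, adjusted over all probe sets. Of all probe sets, 47.6 percent passed this test. Of the 40 neighbours, 20 passed, near that background: 6 of 10 around Slc15a2, 6 around Atp8b4, 5 around Slc1a5 and 3 around Kcnma1. The neighbours had a median SD between strains of 0.15 on the log2 scale, against 0.14 in the whole table. Neighbours past the threshold with at least a 2-fold range were Cd86 beside Slc15a2, Fgf7 and Dtwd1 beside Atp8b4 and Dlg5 beside Kcnma1. Cd86, a ligand of CD28 and CTLA4, ranged from 52.7 in MSM/Ms to 151 in SM/J (limma adjusted p = 1.92e-11), with a correlation of 0.03 to Slc15a2. Dlg5, a scaffold protein gene, ranged from 95.3 in MA/MyJ to 342 in CAST/EiJ (limma adjusted p = 2.96e-10). Fgf7, a growth factor gene, ranged 2.37-fold (limma adjusted p = 0.00267), from 38.2 in MSM/Ms to 90.7 on the only SWR/J array. Its strain means all lay below the median of all values. Dtwd1 ranged 2.33-fold (limma adjusted p = 0.00911), from 168 in PL/J to 392 in PWD/PHJ. Its SD of strain means was 0.244 on the log2 scale, close to its replicate SD of 0.242.

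Other genes of the same transport systems were taken from 6 lists, with the members left out and 1 probe set per gene. Of 112 measured genes 74 passed the F-test (66.1 percent, against 47.6 percent of all probe sets). The lists were drawn up with earlier results of these data known. Apart from the Orai2 probe set described below, whether a list probe set reads its annotated gene was not looked into. Each gene was read by its brightest probe set, whereas the 47.6 percent covers dim and unnamed ones too, so the 2 shares are not like for like. Of the 79 genes that lay above the overall median in at least 1 strain 73 passed, against 72.6 percent of all such probe sets. The list genes had a median SD between strains of 0.16. The highest in any list, that of Asns, was 0.89, below those of Slc15a2 (1.51), Atp8b4 (1.03) and probe set 10582545 (1.83), which were chosen for theirs.

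Among transporters and handlers of small peptides, 8 of 13 genes passed (61.5 percent, against 47.6 percent of all probe sets). Of the 8 that lay above the overall median in at least 1 strain 8 passed, against 72.6 percent of all such probe sets. Slc15a4, a lysosomal relative of Slc15a2, ranged 1.77-fold between strains (limma adjusted p = 0.0201), whereas Slc15a1, Slc15a3 and Slc15a5 did not pass (adjusted p of 0.0526, 0.354 and 0.754 in limma). The widest ranges were those of Pepd, a dipeptidase gene, from 132 in RIIIS/J to 535 in JF1/Ms, and Nod1, a sensor of bacterial peptidoglycan, from 109 in MSM/Ms to 461 in 129S1/SvImJ. Dpp7 and Lap3, which encode peptidases, ranged 3.48- and 2.26-fold.

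Of 25 genes of amino acid transport 17 passed (68 percent, against 47.6 percent of all probe sets). Of the 16 that lay above the overall median in at least 1 strain 16 passed, against 72.6 percent of all such probe sets. In the Slc1 family itself Slc1a4, the closest relative of Slc1a5, passed with a range from 55.0 in A/J to 115 in DDY/JclSidSeyFrkJ (limma adjusted p = 0.00141), and the other 5 measured relatives did not. Slc7a5 and Slc3a2, the chains of the leucine transporter that exports glutamine in exchange, passed with ranges of 2.06- and 1.56-fold. The widest range was that of Slc43a1, a carrier of large neutral amino acids, from 51.8 in the DBA2-titled group to 552 in JF1/Ms (limma adjusted p = 7.01e-24). Slc43a3, a purine nucleobase carrier gene, ranged 3.97-fold, Slc36a4 3.45-fold and Slc16a10, an aromatic amino acid carrier gene, 2.16-fold. Of 10 genes of glutamine use 8 passed (80 percent, against the same 47.6 percent), as did 8 of the 9 above the overall median, against 72.6 percent. Asns, which makes asparagine from glutamine, ranged from 51.6 in the C57BR-titled group to 429 in 129S1/SvImJ (limma adjusted p = 2.93e-25). Got1, an aspartate aminotransferase gene, the transcription factor gene Myc and Gfpt1, the entry enzyme of hexosamine synthesis, ranged 2.63-, 2.58- and 2.07-fold.

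Of 19 flippase, partner and scramblase genes 13 passed (68.4 percent, against 47.6 percent of all probe sets). Of the 14 that lay above the overall median in at least 1 strain 13 passed, against 72.6 percent of all such probe sets. The other members of the Atp8b branch had narrow ranges: Atp8b2 ranged 1.47-fold and passed (limma adjusted p = 0.00551), and Atp8b1, Atp8b3 and Atp8b5 did not. Tmem30a, the CDC50 partner gene, ranged 1.68-fold. Atp9a ranged from 96.0 in WSB/EiJ to 407 in MRL/MpJ, Atp10a from 285 in LP/J to 1017 in PWD/PHJ, and Atp10d and Atp11b ranged 2.55- and 2.42-fold.

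Of 22 potassium channel and BK partner genes 7 passed (31.8 percent, against 47.6 percent of all probe sets). These were 7 of the 10 genes that lay above the overall median in at least 1 strain, near the 72.6 percent of all such probe sets. Kcnmb4, which encodes a regulatory subunit of the BK channel, ranged from 69.2 in CAST/EiJ to 152 in DDY/JclSidSeyFrkJ (limma adjusted p = 6.26e-11). The other 3 regulatory subunit genes of the Kcnmb family and 4 of the Lrrc26 group did not pass. Of the channels that T cells are known to use, Kcna3 ranged from 456 in JF1/Ms to 903 in NON/ShiLtJ and Kcnn4 from 1360 in RIIIS/J to 2249 in C57BLKS/J. Kcna2 and Kcnq5 ranged 1.94- and 2.13-fold.

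Of 23 calcium and chloride channel genes 21 passed (91.3 percent, against 47.6 percent of all probe sets). Of the 22 that lay above the overall median in at least 1 strain 21 passed, against 72.6 percent of all such probe sets. P2rx7, the ATP-gated channel gene, ranged from 212 in DDY/JclSidSeyFrkJ to 836 in 129S1/SvImJ (limma adjusted p = 6.3e-23). The probe set annotated to Orai2, a subunit gene of the store-operated calcium channel, stood at 6461 in PWD/PHJ against a strain median of 1779. Its identifier, 10436426, lies between those of Hcls1 (10435565) and Slc15a2 (10439321), which are on chromosome 16. Whether it reads Orai2 was not determined. Lrrc8b, of the volume-regulated anion channel, and Piezo1, a mechanically gated channel gene, ranged 3.69- and 3.16-fold.

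**Figure D5:**
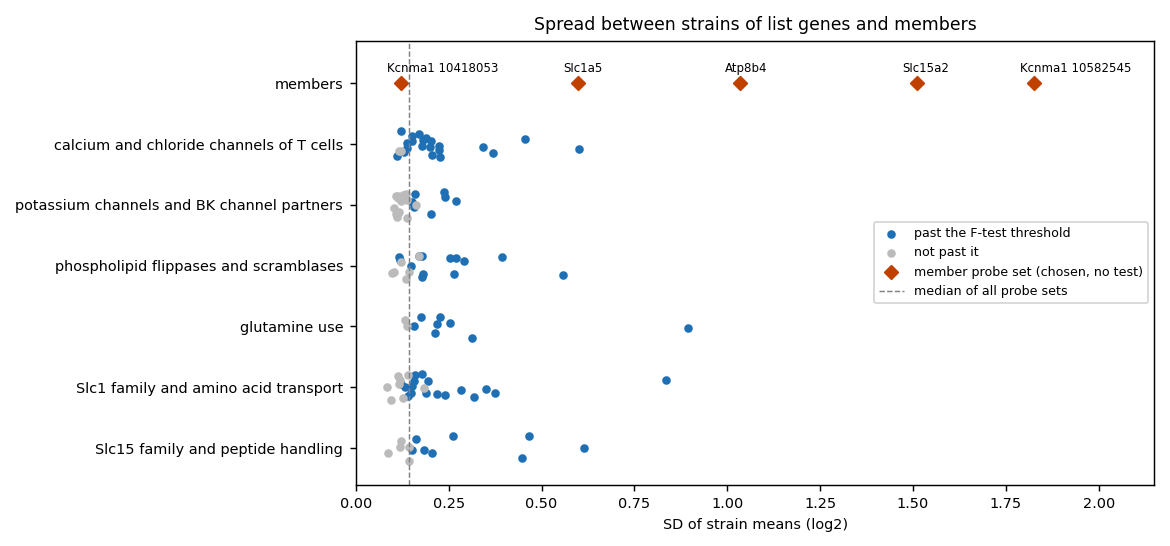
SD of strain means on the log2 scale for each gene of 6 lists (circles, blue where past the F-test threshold and grey where not) and for the 5 member probe sets (diamonds, not tested), with the median of all probe sets as a dashed line. The members other than Kcnma1 probe set 10418053 lie between 0.60 and 1.83, and the list genes reach at most 0.89.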

How the data were processed

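The values deposited are linear intensities, 1 for every probe set on an array, and RMA and Affymetrix Power Tools were used per the submitters' processing notes. Versions, filters and genome build are not given in the sources used here. Here log2 of the deposited values was used as it stood, without renormalization, and the F-test had no filter on dim values. The search for similar genes and the comparison of strains for likeness used only probe sets above the median of all values in at least 1 strain. Of the probe sets 21425 had 1 symbol in the platform annotation, 1399 several and 2098 none, and only the first were named. Of these 21344 were matched to genes of GRCm38.p6, used for chromosomes, gene order and promoter sequences from RefSeq. A model with 1 coefficient per strain was fitted to all 82 arrays with limma 3.58.1 in R 4.3.3 (42 residual degrees of freedom), and the F-test was adjusted by Benjamini and Hochberg over 24922 probe sets, with a threshold of 0.05. It was tested on simulated data. The p-values measure the spread between pools.

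The members and lists were chosen with earlier results of these data known. A list gene with several probe sets was represented by its brightest. Named were all members, up to 4 called genes per list by SD of strain means, relatives of the members within the lists (after their values were seen), the 3 most and the least alike genes, and called neighbours of at least 2-fold range. The alternatives were quantile normalization, median centring, an offset of 32 before log2, other strain grouping, a replicate block, another prior, array weights, a filter that drops the dimmest 40 percent, another threshold for on, another probe set per gene and leaving out arrays. The number of arrays limits precision.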

Additional observations from a re-analysis of the deposited data

Results flagged for a closer look

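Among 30 probe sets named above, the 5 arrays of C57BL/6J held a value set apart from the other 4 in 5 cases by Dixon's ratio, which by chance picks about 1 in 20. Kcnma1 probe set 10418053 read 48.0 on replicate 5, against 30.3 to 33.2 on the other arrays. On the same array Slc43a1 read 95.6, against 54.8 to 63.9. This array also had the highest dendritic cell marker mean of all arrays, 7.12 against a median of 6.58. Among the C57BL/6J arrays it was highest in every marker list but that of regulatory T cells. Its means were 6.00 for B cell, 6.22 for myeloid, 6.74 for erythroid and 12.14 for T cell markers. Asns read 64.0 on replicate 4, against 50.1 to 53.7. Atp10d read 958 on replicate 2, against 858 to 877, and the unnamed probe set 10582549 read 32.6 on replicate 2, against 35.7 to 36.5.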

How the results depend on the processing

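The counts of the F-test were stable in size. Over all alternatives, between 10826 and 15402 probe sets passed, against 11853, with 72 to 85 list genes against 74 and 17 to 26 neighbours against 20, the highest counts being those with array weights. With the replicate number as a block the counts were 13096, 77 and 23. The numbers name arrays of different strains and are not known to pair them, so the block was used as an alternative alone. Each of the 24 list genes named by rule kept its call under every alternative that tested it. For the members, an offset of 32 before log2 narrowed the range between strains, by its construction most for dim values, to 3.42 for Slc15a2 (4.47 without it), 3.83 for Atp8b4 (4.54), 0.28 for Kcnma1 probe set 10418053 (0.54) and 6.75 for probe set 10582545 (8.15). Centring each array on its median widened that of Slc1a5 to 2.08 from 1.93, and the cause was not tested. With the 60th percentile of all values (179) as the threshold, 7 strains were on for Slc15a2 in place of 11. Leaving out each of the 82 arrays in turn moved the number of strains on to 10 to 12 for Slc15a2 and, for probe set 10582545, to 8 without LP/J replicate 2. Means of 20 to 40 lie far below the median of all values (113), and no order of strains is read from them.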
